A study of Mus musculus with 8 samples.

Results

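The collagens are the structural proteins of the extracellular matrix. Collagen genes were taken as every gene whose symbol on the array reads Col, a number, the letter a and a number. The rule found 43 genes on 47 probe sets, among 21442 named genes and 35556 probe sets. They comprised 11 fibrillar, 9 network-forming, 9 fibril-associated and 6 microfibrillar genes, and 8 outside these classes (4 membrane collagens, the multiplexins Col15a1 and Col18a1, the anchoring collagen Col7a1, and Col28a1). Of these genes, 31 stayed within 1 log2 unit over all 8 arrays, 11 ranged more widely and were highest on the replicate 2 array of Ly6C-high tumour macrophages, and Col14a1 had replicates within 0.21 log2 units in every population and differed between populations.

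Each collagen molecule is a triple helix of alpha chains, each encoded by its own gene. Fibrillar collagens build the cables of connective tissue, network collagens form the sheets of basement membranes, fibril-associated collagens coat the fibrils, and microfibrillar collagen VI forms beaded filaments around cells. In the gut wall and in tumour stroma, fibroblasts are the best known source of collagens I, III and VI, while macrophages are better known for taking up and degrading collagen.

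Total RNA was measured on Affymetrix arrays in 4 sorted myeloid populations, with 2 arrays each, from mice of the strain C57BL/6 with the genotype Cx3cr1gfp/+, in which a green fluorescent protein marks 1 allele of a chemokine receptor gene of monocytes and macrophages. F4/80 high tumour-associated macrophages (F4/80-high TAM) and Ly6C high tumour-infiltrating macrophages (Ly6C-high TAM) were sorted from orthotopic tumours of the colon and rectum, all labelled male. Steady-state lamina propria macrophages came from colon (colon macrophages, replicate 1 male and replicate 2 female), and Ly6C high monocytes came from spleen (spleen monocytes, replicate 1 male and replicate 2 mixed). No treatment was applied to any group, tissues were digested with Collagenase VIII before sorting, and the ages and the tumour line were not given in the sources used here.

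All values are log2 expression values deposited by the authors, and a difference of 1 is a 2-fold change. The mean log2 value of 10 macrophage and monocyte markers lay between 11.53 and 12.35 on every array. Not every marker was high, as Mertk read 7.52 and 6.95 in spleen monocytes. In F4/80-high TAM replicate 2 was higher for 3 of the 10, with a median gap to replicate 1 of -0.12. In Ly6C-high TAM it was higher for 2 (median -0.36), in colon macrophages for 4 (-0.05) and in spleen monocytes for 5 (-0.02). The largest gaps in Ly6C-high TAM were -1.39 for Mertk and -1.26 for Cx3cr1. The replicate 2 arrays of both tumour populations stood apart. Over 12 fibroblast markers the log2 values averaged 7.21 and 8.04 on the arrays of F4/80-high TAM, and 7.35 and 8.53 on those of Ly6C-high TAM, each time with replicate 2 second. They averaged 7.15 and 7.32 in colon macrophages and 6.41 and 6.45 in spleen monocytes. The tumour means were raised by Pdpn, the highest of the 12 on every tumour array. Pdpn read 11.59 and 12.18 in F4/80-high TAM and 10.71 and 11.30 in Ly6C-high TAM. It read 8.59 and 8.89 in colon macrophages and 7.01 and 7.05 in spleen monocytes. Epithelial markers were highest in colon macrophages, with means over 14 genes of 10.91 and 11.71. Median log2 values over all probe sets lay between 6.84 and 7.07. Array values carry no detection call, so a low value is not proof that a gene is silent.

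Over the 8 arrays, 12 of 43 collagen genes (27.9%) ranged over 1 log2 unit or more, close to the 31.6% of all genes, and 31 did not. The 12 were Col1a1, Col1a2 and Col3a1 among the fibrillar, Col4a1, Col4a2 and Col8a1 among the network, Col12a1 and Col14a1 among the fibril-associated and Col6a1, Col6a2 and Col6a3 among the microfibrillar collagens, with the multiplexin Col15a1. This division was made after the values were seen and is a description. The narrowest of the 12 was Col15a1 with a range of 1.26, and the widest of the others was Col20a1 with 0.998. The 31 flat genes had log2 values between 5.50 and 8.34 and a median range of 0.50. Their population means differed by at most 0.68. Among them were the cartilage collagens Col2a1, Col9a1, Col9a2, Col9a3, Col10a1, Col11a1 and Col11a2, and all 4 membrane collagens. Of the 31, 13 were highest in the replicate 2 array of spleen monocytes, 12 in the replicate 1 array of colon macrophages and 4 in the replicate 2 array of Ly6C-high TAM.

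**Figure D1:**
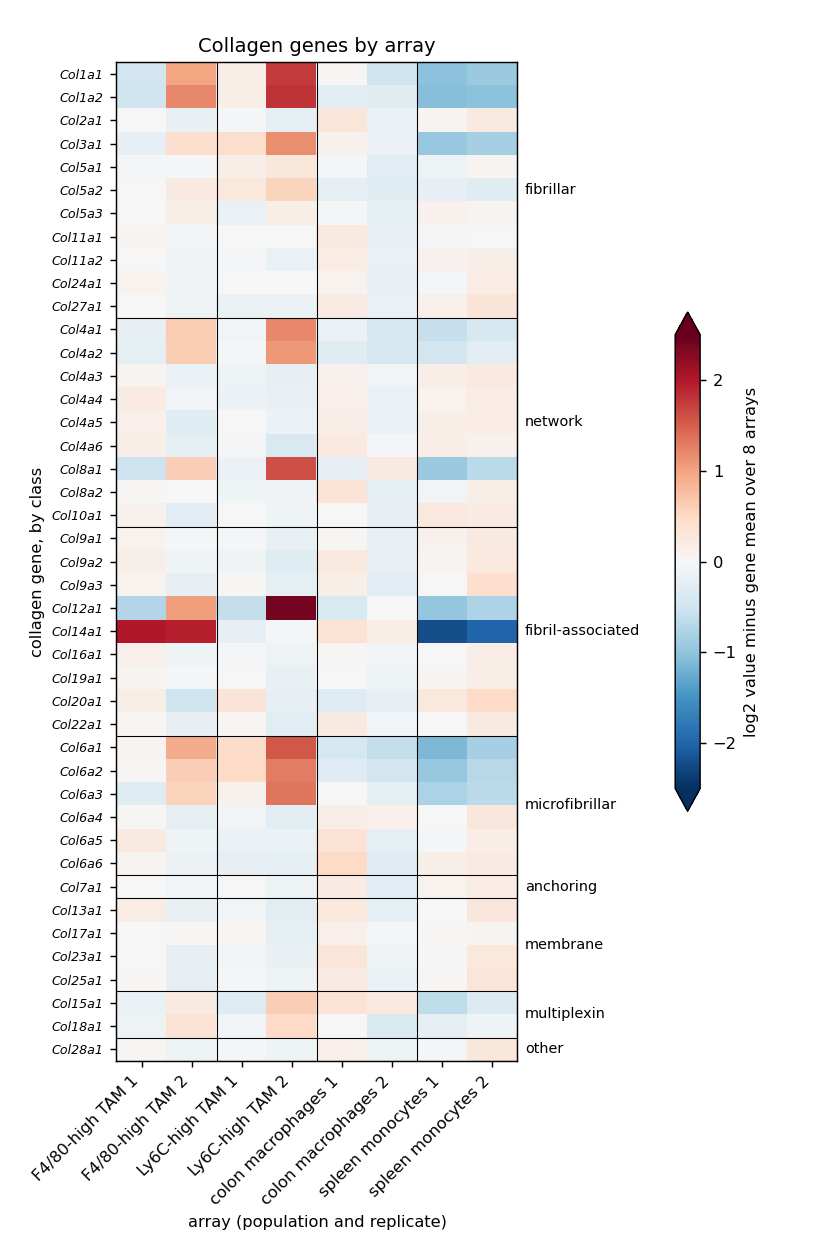
Heat map of 43 collagen genes (rows, by class) on 8 arrays (columns, by population and replicate). Colour gives the log2 value minus the gene's mean over the 8 arrays, with arrows where the scale ends. The strong reds outside Col14a1 lie in the replicate 2 arrays of both tumour populations, while Col14a1 is high on both arrays of F4/80-high TAM and low on both of spleen monocytes.

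A gene was called where the adjusted p from limma did not exceed 0.05 and the fold was at least 2, the submitters' criteria. By this rule 4 of 43 collagen genes were called in at least 1 of the 6 pairwise comparisons (9.3%, against 16.3% of all genes), and 39 in none. The 6 comparisons share arrays and are not independent of each other.

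In F4/80-high TAM against colon macrophages, Col14a1 alone was higher (1 of 43, against 2.67% of all genes) and no collagen was lower (against 3.72%). Between the tumour populations, Col14a1 alone was higher in F4/80-high TAM (against 0.168% of all genes) and none lower (against 0.0979%). Against spleen monocytes, Col14a1 alone was higher in F4/80-high TAM (against 4.58%) and none lower (against 2.37%). In colon macrophages against spleen monocytes, Col14a1 alone was again higher (against 6.93%) and none lower (against 4.0%). The comparison of Ly6C-high TAM with spleen monocytes had the most collagen calls. There Col14a1, Col3a1, Col6a1 and Col6a2 were higher (4 of 43, or 9.3%, against 2.88% of all genes) and none lower (against 1.62%). In Ly6C-high TAM against colon macrophages, Col6a2 alone was higher (against 2.74%) and none lower (against 4.16%). At an unadjusted p under 0.05, 12 collagens differed in Ly6C-high TAM against spleen monocytes (2 of them lower), 6 in Ly6C-high TAM against colon macrophages (1 lower), 5 in F4/80-high TAM against spleen monocytes (none lower), 4 in F4/80-high TAM against colon macrophages (none lower), 4 in colon macrophages against spleen monocytes (1 lower) and 1 between the tumour populations (not lower).

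The median log2 difference over the family lay close to that over all genes. It was 0.02 for F4/80-high TAM minus colon macrophages, where all genes had 0.05. It was -0.19 for Ly6C-high TAM minus spleen monocytes, where all genes had -0.08. In the second comparison 16 of 43 collagen genes lay above 0, so the calls came from a minority of the family.

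The collagen count in Ly6C-high TAM against spleen monocytes depended on single arrays. Without the replicate 1 array of Ly6C-high TAM 12 collagens were called, in a fit that called 7.84% of all genes higher, against 2.88% with all arrays. Without the replicate 2 array of Ly6C-high TAM, or without any 1 array of colon macrophages or spleen monocytes, 1 was called, which was Col14a1 each time, and 1.13% to 2.46% of all genes were called higher in these fits. The calls of Col3a1, Col6a1 and Col6a2 were therefore lost under each of these 5 omissions, and that of Col6a1 also under quantile normalisation (adjusted p = 0.0681). The Ly6C-high TAM against colon macrophage count of 1 became 7 without the replicate 1 array of Ly6C-high TAM, where the share of all genes went from 2.74% to 5.51%, and 0 without its replicate 2 array or any 1 array of colon macrophages or spleen monocytes, where it was 1.82% to 3.05%. With F4/80-high TAM set against spleen monocytes, 4 collagens were called without either array of Ly6C-high TAM, where 5.92% of all genes were.

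Col14a1 encodes the chain of collagen XIV, a fibril-associated collagen that binds to the surface of collagen I fibrils and takes part in their assembly. Its log2 values were 10.85 and 10.78 in F4/80-high TAM, 9.20 and 9.02 in colon macrophages, 8.65 and 8.80 in Ly6C-high TAM, and 6.63 and 6.84 in spleen monocytes. No population overlapped with another, and both tumour populations had replicates within 0.15 of each other. Their means were 10.82 ± 0.05 (SD, n = 2), 9.11 ± 0.13, 8.72 ± 0.10 and 6.73 ± 0.15 in the same order.

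Col14a1 was 3.26-fold higher in F4/80-high TAM than in colon macrophages, with a log2 difference of 1.71 ± 0.14 (standard error of the fit) and an adjusted p of 0.00212. It was 4.26-fold higher in F4/80-high TAM than in Ly6C-high TAM (log2 difference 2.09 ± 0.14, adjusted p = 0.00845), and 17.0-fold higher than in spleen monocytes (4.08 ± 0.14, adjusted p = 5.46e-05). The difference between F4/80-high and Ly6C-high TAM kept its size, at 2.02 to 2.20 over the alternatives. Its call was lost without the replicate 1 array of F4/80-high TAM and without either array of spleen monocytes. Those fits leave 1 array in a population, and the loss of calls there was not particular to Col14a1. Ly6C-high TAM lay 3.98-fold above spleen monocytes (1.99 ± 0.14, adjusted p = 0.000657) and colon macrophages 5.20-fold above them (2.38 ± 0.14, adjusted p = 0.000217). The spleen values lay below the medians of their arrays over all probe sets (7.05 and 7.06), at a level that cannot be told from background, so the size of the folds over spleen monocytes is uncertain. Ly6C-high TAM and colon macrophages were the only neighbours in this order that did not pass, at -0.39 ± 0.14 with an adjusted p of 0.135. The tumour difference was 1.71 in mature and 1.99 in Ly6C-high cells, and the interaction of -0.29 ± 0.19 had an adjusted p of 0.465. The second difference sets tumour against spleen, so tumour and organ cannot be told apart in it. It also starts from the low spleen values, so the interaction cannot show that the 2 are equal.

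**Figure D2:**
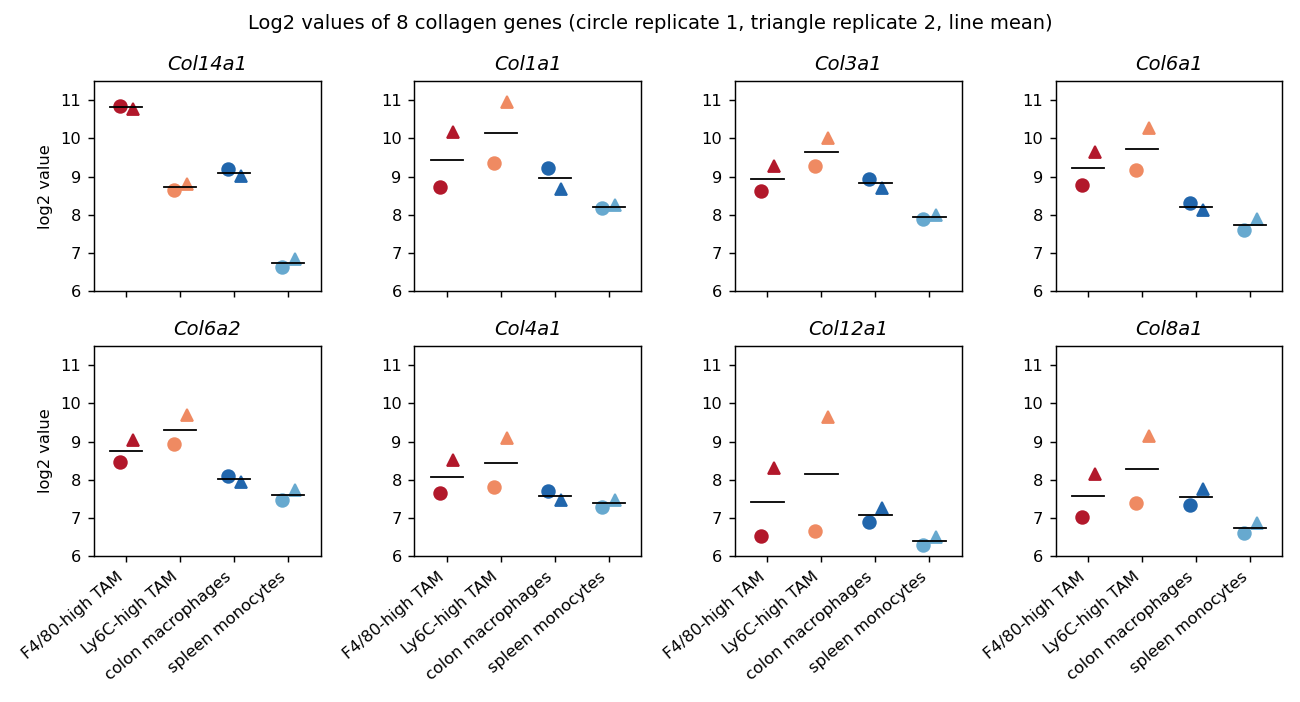
Log2 values (y axis) of 8 collagen genes in 4 populations (x axis), with 1 panel per gene, a circle for replicate 1, a triangle for replicate 2 and a line at the mean. The arrays of Col14a1 lie within 0.21 of each other in each population, while in the other 7 panels the triangle is above the circle in both tumour populations.

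The genes nearest to Col14a1 over the 8 arrays were found by the root mean square distance between log2 values centred on each gene's own mean. They were Prune2 (0.37 log2 units), Slc41a2, which encodes a magnesium transporter (0.47), Mexis, a long noncoding RNA named AI427809 on the array (0.53), Slamf9, a receptor of the SLAM family (0.53), and Cd200r4, a receptor of the CD200R family (0.54). Prune2 read 10.53 and 9.65 in F4/80-high TAM, 8.52 and 8.12 in Ly6C-high TAM, 8.89 and 9.19 in colon macrophages and 6.47 and 6.34 in spleen monocytes. The nearest collagen was Col6a1 at 1.20, and 1343 genes lay closer to Col14a1 than Col6a1 did.

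Among the fibrillar collagens, Col1a1, Col1a2 and Col3a1 varied most. Col1a1 and Col1a2 encode the chains of collagen I, the main fibre protein of connective tissue, and Col3a1 encodes collagen III, which forms finer fibres in distensible tissue such as gut and vessels. Col1a1 had log2 values of 8.72 and 10.17 in F4/80-high TAM, 9.36 and 10.94 in Ly6C-high TAM, 9.23 and 8.69 in colon macrophages and 8.17 and 8.26 in spleen monocytes. Col1a2 had 8.12 and 9.82, 8.76 and 10.42, 8.33 and 8.32, and 7.55 and 7.59 in the same order. Col3a1 had 8.63 and 9.27, 9.29 and 10.01, 8.95 and 8.70, and 7.89 and 8.01. For all 3 genes the replicate 2 array of Ly6C-high TAM was highest, both arrays of spleen monocytes were lowest, and the arrays of F4/80-high TAM lay on either side of colon macrophages for Col1a2 and Col3a1.

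Against spleen monocytes, Col3a1 was 3.25-fold higher in Ly6C-high TAM (log2 difference 1.70 ± 0.29, adjusted p = 0.0209). Col1a1 and Col1a2 differed by as much but with a wider error, at 1.94 ± 0.62 (adjusted p = 0.134) and 2.02 ± 0.66 (adjusted p = 0.142), and were not called. For F4/80-high TAM minus colon macrophages, Col1a1 had 0.49 ± 0.62 (adjusted p = 0.73), Col1a2 0.65 ± 0.66 (adjusted p = 0.65) and Col3a1 0.13 ± 0.29 (adjusted p = 0.871). Without the replicate 2 array of F4/80-high TAM these 3 differences were -0.24, -0.21 and -0.19, so their direction rested on 1 array.

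Col5a2, a chain of collagen V, which starts new fibrils and limits their width, is named after its values were seen. It had 7.01 and 7.21 in F4/80-high TAM, 7.26 and 7.54 in Ly6C-high TAM, 6.76 and 6.68 in colon macrophages and 6.78 and 6.69 in spleen monocytes. Both tumour populations lay above both healthy ones on every array. In Ly6C-high TAM its difference was 0.67 ± 0.14 against spleen monocytes (1.59-fold, adjusted p = 0.0419) and 0.68 ± 0.14 against colon macrophages (adjusted p = 0.0279), and both fell short of the 2-fold limit. The 8 flat fibrillar genes, Col5a2 and the other collagen V chains Col5a1 and Col5a3 among them, ranged over no more than 0.85.

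The start regions of 3 collagens that were high on the same arrays are shown to let their sequences be set side by side. RefSeq promoter windows on GRCm38.p6 matched 35 of the 43 collagen genes, with 38 windows. These windows hold the 250 bases before each start, 5′ to 3′ on the strand of the gene, and lie at chr6:4505368-4505617 on the plus strand for Col1a2, chr1:45311288-45311537 on the plus strand for Col3a1 and chr10:76623405-76623654 on the minus strand for Col6a2. Capitals mark matches to a TATA box written TATAAA, to a CAAT box with the letters CCAAT and to a GC box spelled GGGCGG. Each was searched on both strands, and no marked matches overlap.
Col1a2: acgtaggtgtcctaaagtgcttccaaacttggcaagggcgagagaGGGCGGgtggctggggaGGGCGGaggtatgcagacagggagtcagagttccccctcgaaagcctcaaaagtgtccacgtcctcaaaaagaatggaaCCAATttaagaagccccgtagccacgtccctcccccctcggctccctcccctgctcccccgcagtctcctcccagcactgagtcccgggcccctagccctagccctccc
Col3a1: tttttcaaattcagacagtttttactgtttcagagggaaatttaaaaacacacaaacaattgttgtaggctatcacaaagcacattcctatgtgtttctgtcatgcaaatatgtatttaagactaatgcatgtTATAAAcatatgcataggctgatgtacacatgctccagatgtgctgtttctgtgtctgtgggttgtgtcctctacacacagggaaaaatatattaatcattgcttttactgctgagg
Col6a2: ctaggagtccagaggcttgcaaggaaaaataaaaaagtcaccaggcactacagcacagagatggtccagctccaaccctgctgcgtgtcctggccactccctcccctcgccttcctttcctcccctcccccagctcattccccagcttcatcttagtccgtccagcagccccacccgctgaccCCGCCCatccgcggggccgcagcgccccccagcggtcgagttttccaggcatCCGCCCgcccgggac
In Col1a2 the GC box began 205 and 188 bases before the start and the CAAT box 109 bases before it. In Col3a1 the only match was the TATA box at 117 bases. In Col6a2 the GC box lay on the opposite strand, where it reads CCGCCC, at 67 and 15 bases. Of 32851 windows of this length over all genes, 12.4% held the TATA box, 33.8% the CAAT box and 32.7% the GC box. Of the 38 collagen windows, 5 (13.2%), 13 (34.2%) and 22 (57.9%) held them, and overlapping windows of a gene share sequence. The matches describe letters only, and no motif occurred in all 3 windows shown.

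Among the network collagens, Col4a1 and Col4a2 encode the chains of the collagen IV that is found in nearly all basement membranes. The genes lie head to head on chromosome 8, and their starts are 21 bases apart on opposite strands. Col4a1 had log2 values of 7.66 and 8.51 in F4/80-high TAM, 7.80 and 9.08 in Ly6C-high TAM, 7.70 and 7.46 in colon macrophages and 7.29 and 7.48 in spleen monocytes. Col4a2 had 7.72 and 8.58, 7.91 and 9.04, 7.65 and 7.54, and 7.50 and 7.70 in the same order. Both genes were high on the replicate 2 arrays of the tumour populations, while the replicate 1 tumour arrays lay within or just above the span of the healthy ones. Neither was called. Ly6C-high TAM minus spleen monocytes was 1.06 ± 0.44 for Col4a1 (adjusted p = 0.229) and 0.88 ± 0.41 for Col4a2 (adjusted p = 0.269).

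Col8a1 encodes a chain of collagen VIII, a short collagen of vessel walls. It read 7.02 and 8.15 in F4/80-high TAM, 7.39 and 9.15 in Ly6C-high TAM, 7.33 and 7.75 in colon macrophages and 6.61 and 6.86 in spleen monocytes. Here too the replicate 2 tumour arrays were highest, and the replicate 1 array of F4/80-high TAM lay below both of colon macrophages. Ly6C-high TAM minus spleen monocytes was 1.54 ± 0.60 (adjusted p = 0.205). The collagen IV chains Col4a3, Col4a4, Col4a5 and Col4a6, which serve more specialised basement membranes such as those of kidney, and Col8a2 and Col10a1 stayed between 5.50 and 7.05 on all arrays.

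The microfibrillar genes Col6a1, Col6a2 and Col6a3 encode the common chains of collagen VI. Col6a1 had log2 values of 8.79 and 9.65 in F4/80-high TAM, 9.18 and 10.28 in Ly6C-high TAM, 8.30 and 8.14 in colon macrophages and 7.60 and 7.90 in spleen monocytes. Col6a2 had 8.46 and 9.04, 8.93 and 9.70, 8.10 and 7.95, and 7.47 and 7.74 in the same order. For both genes every tumour array lay above every healthy array, replicate 1 included. Col6a3 had 7.33 and 8.18, 7.74 and 8.97, 7.63 and 7.38, and 6.84 and 6.97, and its F4/80-high TAM arrays lay on either side of colon macrophages.

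Col6a1 was 3.95-fold higher in Ly6C-high TAM than in spleen monocytes (log2 difference 1.98 ± 0.41, adjusted p = 0.0379), and Col6a2 was 3.26-fold higher (1.70 ± 0.30, adjusted p = 0.0216). Col6a2 was also 2.44-fold higher in Ly6C-high TAM than in colon macrophages (1.28 ± 0.30, adjusted p = 0.0396), where Col6a1 had 1.51 ± 0.41 (adjusted p = 0.0635). For F4/80-high TAM minus colon macrophages, Col6a1 had 1.00 ± 0.41 (adjusted p = 0.175) and Col6a2 0.72 ± 0.30 (adjusted p = 0.18). Against spleen monocytes the differences of F4/80-high TAM were 1.48 ± 0.41 (adjusted p = 0.0672) and 1.14 ± 0.30 (adjusted p = 0.056). Col6a3 was not called, with 1.45 ± 0.43 for Ly6C-high TAM minus spleen monocytes (adjusted p = 0.112). The chains Col6a4, Col6a5 and Col6a6, which resemble the Col6a3 chain, stayed within 0.81 log2 units.

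Beside Col14a1, the fibril-associated class had 1 gene with a wide range. Col12a1 encodes collagen XII, which coats collagen I fibrils in tissue under load, and is named after its values were seen. It had 6.53 and 8.31 in F4/80-high TAM, 6.66 and 9.65 in Ly6C-high TAM, 6.89 and 7.26 in colon macrophages and 6.30 and 6.50 in spleen monocytes. The replicate 1 tumour arrays lay just above the span of spleen monocytes and below colon macrophages, and the replicate 2 arrays lay above every other array. Its gap between the arrays of Ly6C-high TAM was 2.99, where Col14a1 of the same class had 0.15. Ly6C-high TAM minus spleen monocytes was 1.76 ± 0.97 (adjusted p = 0.341). The other 7 genes of the class, including the collagen IX chains Col9a1, Col9a2 and Col9a3, lay between 6.00 and 8.34.

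The multiplexins sit at basement membranes, and a fragment of Col18a1 is the angiogenesis inhibitor endostatin. Col15a1 had 7.44 and 7.83 in F4/80-high TAM, 7.28 and 8.22 in Ly6C-high TAM, 7.95 and 7.84 in colon macrophages and 6.97 and 7.25 in spleen monocytes. Col18a1 had 7.43 and 7.92, 7.49 and 8.05, 7.57 and 7.19, and 7.31 and 7.45. Colon macrophages had the highest mean of Col15a1, and F4/80-high TAM minus colon macrophages was -0.26 ± 0.31 (adjusted p = 0.71). Ly6C-high TAM minus spleen monocytes was 0.64 ± 0.31 for Col15a1 (adjusted p = 0.288) and 0.39 ± 0.255 for Col18a1 (adjusted p = 0.415). In the remaining classes the differences were small and not called. For the same comparison Col7a1, which anchors epidermis to dermis, had -0.21 ± 0.17 (adjusted p = 0.492), the membrane collagen Col13a1, which is found at cell adhesion sites, -0.32 ± 0.22 (adjusted p = 0.44) and Col28a1 -0.19 ± 0.16 (adjusted p = 0.516).

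**Figure D3:**
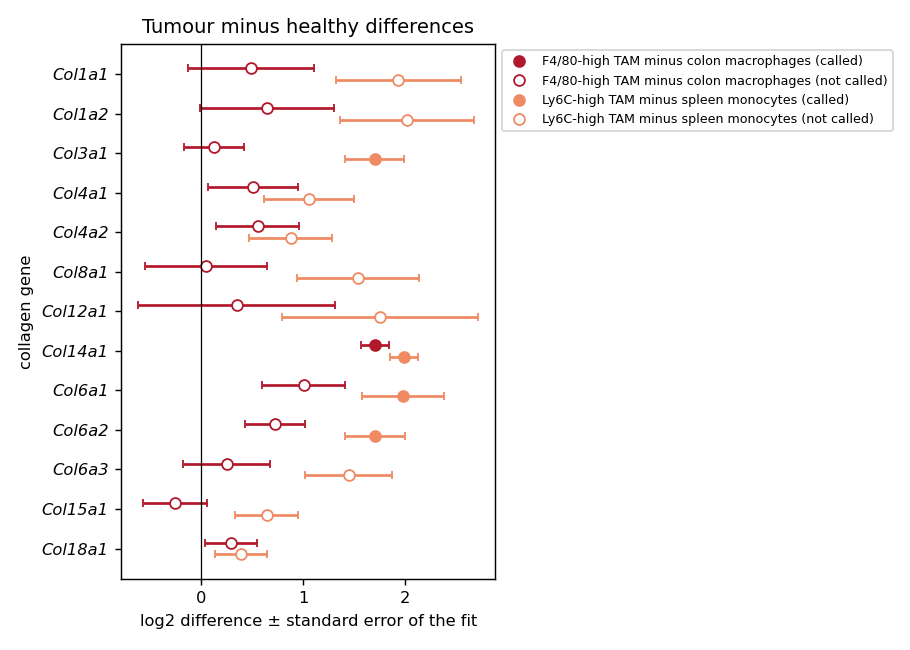
Log2 differences (x axis) of 13 collagen genes (y axis) between tumour and healthy populations, with bars of 1 standard error of the fit. Filled points passed the threshold. Col14a1 has the narrowest bars and is filled in both comparisons, while Col3a1, Col6a1 and Col6a2 are filled only for Ly6C-high TAM minus spleen monocytes.

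Whether the tumour difference of a collagen differed between the mature and the Ly6C-high cells was tested as an interaction in limma. The mature cells were set against colon macrophages and the Ly6C-high cells against spleen monocytes. In the latter difference tumour and organ cannot be told apart. None of 43 collagen genes passed, against 6.56% of all genes, and 1 had an unadjusted p under 0.05. That gene was Col3a1, whose tumour difference was smaller in the mature cells, with an interaction of -1.58 ± 0.42 on the log2 scale (adjusted p = 0.076). The median interaction was 0.12 over the family and 0.14 over all genes. Without the replicate 1 array of Ly6C-high TAM 4 collagens passed, which were Col3a1, Col6a3, Col8a1 and Col15a1, and so did 12.8% of all genes.

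The 11 collagens with a wide range other than Col14a1 varied both by replicate and by population. For 6 of them (Col1a1, Col1a2, Col3a1, Col6a1, Col6a2 and Col6a3) the population means spanned more than the larger gap between replicates of a tumour population, and for the other 5 they spanned less. Replicate 2 minus replicate 1 lay between 0.38 and 1.78 log2 units in F4/80-high TAM and between 0.72 and 2.99 in Ly6C-high TAM, and was above 0 for all 11 genes in both. In colon macrophages it lay between -0.54 and 0.42 with 2 genes above 0, and in spleen monocytes between 0.03 and 0.30. For the 31 flat collagens the median gap was -0.19, -0.11, -0.32 and 0.15 for F4/80-high TAM, Ly6C-high TAM, colon macrophages and spleen monocytes. Replicate 2 was higher by 1 or more for 4 of 43 collagens in F4/80-high TAM and 8 of 43 in Ly6C-high TAM, where 2.86% and 5.61% of all genes were. In colon macrophages and spleen monocytes no collagen was, against 1.60% and 0.0187% of all genes.

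Set side by side by replicate number, F4/80-high TAM lay below Ly6C-high TAM for 10 of the 11 genes in replicate 1 and for all 11 in replicate 2. The differences ran from -0.66 to 0.17 in replicate 1 and from -1.34 to -0.40 in replicate 2. For Col3a1 they were -0.66 and -0.74, and the fit over all arrays gave -0.70 ± 0.29 (adjusted p = 0.583). Col14a1 had 2.20 and 1.99, the opposite direction. The labels tie the numbers to no animal. The fit takes the arrays as unpaired, so a replicate gap shared by both tumour populations counts as spread in their comparison. A fit with the replicate number as a block called no collagen lower between the tumour populations. That block is 1 shift shared by all populations, so it cannot take out a gap seen mainly in the tumour populations. It does not decide whether these differences hold within a replicate number.

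Markers of other cell types moved on the same arrays. Of 12 fibroblast markers, replicate 2 was higher for 11 in F4/80-high TAM, with a median gap of 0.93, and for 11 in Ly6C-high TAM, with a median gap of 1.26. Prrx1, a mesenchymal transcription factor, had 7.63 and 8.97 in F4/80-high TAM, 8.24 and 9.80 in Ly6C-high TAM, 5.74 and 5.49 in colon macrophages and 5.70 and 5.70 in spleen monocytes. Dpt, which encodes the fibroblast matrix protein dermatopontin, had 5.19 and 7.22, 5.23 and 8.62, 8.84 and 9.31, and 4.72 and 4.78. Prrx1 was thus high on all 4 tumour arrays, whereas Dpt was near the spleen values on the replicate 1 tumour arrays and high in colon. The fibroblast markers Pdpn and Prrx1 were called higher and Tcf21 lower in F4/80-high TAM against colon macrophages (3 of 12), and Pdgfra, Pdpn and Prrx1 were called higher in Ly6C-high TAM against spleen monocytes (3 of 12). Over all genes, 2.67% were higher and 3.72% lower in the former comparison and 2.88% higher in the latter. The median difference over the 12 markers was 0.37 in the former and 1.39 in the latter, where all genes had 0.05 and -0.08.

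The 10 endothelial markers averaged 6.89 and 7.69 log2 units in F4/80-high TAM, 6.91 and 8.28 in Ly6C-high TAM, 7.56 and 7.50 in colon macrophages, and 6.74 and 6.69 in spleen monocytes. The 11 pericyte and smooth muscle markers averaged 6.76 and 7.39, 6.79 and 7.90, 7.53 and 7.43, and 6.87 and 6.86 in the same order. Epithelial markers had 7.06 and 8.72 in F4/80-high TAM and 7.21 and 9.22 in Ly6C-high TAM. The part of these other cell types in the collagen values was not tested. In sorted bulk RNA, fewer cells of a type and less RNA per cell cannot be told apart. Col14a1 had gaps between replicate 2 and replicate 1 of -0.07, 0.15, -0.19 and 0.21 in F4/80-high TAM, Ly6C-high TAM, colon macrophages and spleen monocytes, where the medians over all genes were -0.08, -0.09, -0.01 and 0.01.

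**Figure D4:**
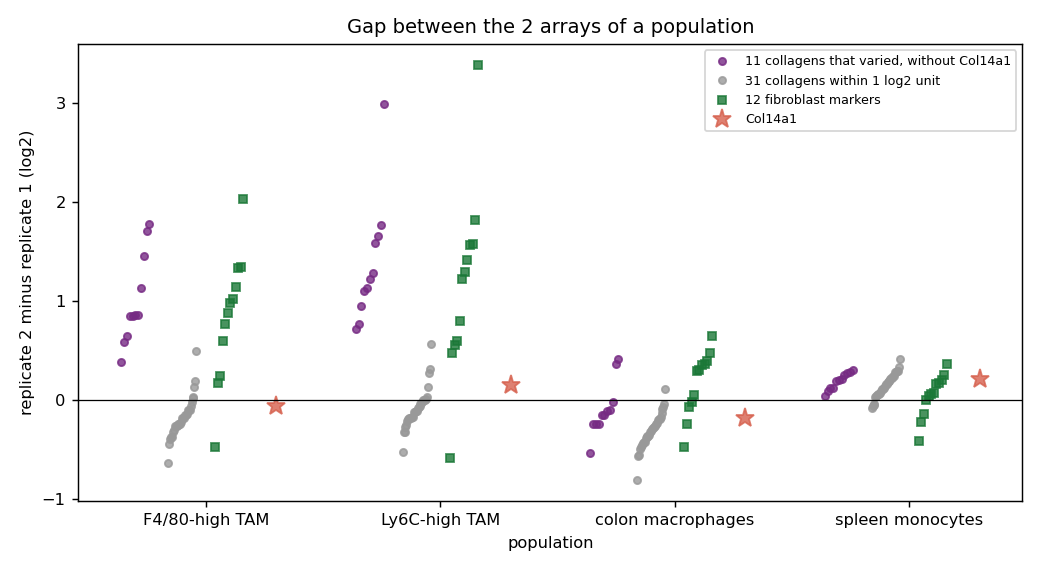
Replicate 2 minus replicate 1 (y axis, log2 units) in 4 populations (x axis), with 1 point per gene, for 11 collagens with a wide range, 31 flat collagens, 12 fibroblast markers and Col14a1. In both tumour populations the 11 collagens lie above 0 with most fibroblast markers, and the flat collagens and Col14a1 lie near 0.

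The enzymes and chaperones that modify, fold, cut and cross-link collagen chains were followed in a list of which 36 genes were measured. Over the list the arrays of F4/80-high TAM averaged 8.19 and 8.90 log2 units, against 8.31 and 9.25 in Ly6C-high TAM, 8.08 and 8.10 in colon macrophages and 7.65 and 7.72 in spleen monocytes. Against colon macrophages, 2 of 36 were higher in F4/80-high TAM (against 2.67% of all genes) and none lower (against 3.72%). These were Plod1, a lysyl hydroxylase, at 1.21 ± 0.14 (adjusted p = 0.00516), and the crosslinking transglutaminase Tgm2 at 1.50 ± 0.23 (adjusted p = 0.012). In Ly6C-high TAM against spleen monocytes 3 of 36 were higher (against 2.88% of all genes) and none lower (against 1.62%). They were Sparc, a collagen-binding matricellular protein, at 5.17 ± 0.83 (adjusted p = 0.0164), Tgm2 at 4.28 ± 0.23 (adjusted p = 0.000332) and Pcolce, an enhancer of procollagen cleavage, at 3.70 ± 0.82 (adjusted p = 0.0483). The median difference over the list was 0.48 in the first comparison and 0.83 in the second, beside 0.05 and -0.08 over all genes.

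Single genes of this list differed in how closely their replicates lay. Plod1 read 11.62 and 11.52 in F4/80-high TAM, 10.75 and 10.88 in Ly6C-high TAM, 10.49 and 10.24 in colon macrophages, and 9.86 and 9.99 in spleen monocytes. Pcolce had 8.88 and 10.99, 9.49 and 11.57, 7.93 and 8.03, and 6.70 and 6.96, and the collagen chaperone Serpinh1 had 7.44 and 9.37, 7.64 and 10.13, 7.23 and 6.96, and 6.76 and 7.20. Like Col14a1, Plod1 had close replicates and was highest in F4/80-high TAM, while Pcolce and Serpinh1 were high on the replicate 2 tumour arrays as the collagen I chains were. Replicate 2 was higher by 1 or more for 10 of 36 genes in F4/80-high TAM (against 2.86% of all genes) and 17 of 36 in Ly6C-high TAM (against 5.61%). It was so for none in colon macrophages (against 1.60%) and spleen monocytes (against 0.0187%).

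In the other comparisons, 3 of 36 were higher in F4/80-high TAM than in spleen monocytes (against 4.58% of all genes), among them Sparc by 4.39 ± 0.83 (adjusted p = 0.0203). In Ly6C-high TAM, 2 of 36 were higher than in colon macrophages (against 2.74%), Tgm2 by 2.37 ± 0.23 (adjusted p = 0.0024) and the lysyl hydroxylase Plod3 by 1.27 ± 0.18 (adjusted p = 0.00769). Colon macrophages against spleen monocytes had 4 higher (against 6.93% of all genes) and 2 lower (against 4.0%), led by the prolyl hydroxylase P3h2 at 4.10 ± 0.91 (adjusted p = 0.0244). None of 36 was called between F4/80-high and Ly6C-high TAM, where only 0.168% of all genes were higher and 0.0979% lower.

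Receptors that bind or take up collagen were followed in a list of which 15 were measured. Mrc1, the mannose receptor, which binds and internalises collagen, read 12.57 and 11.95 in F4/80-high TAM, 11.21 and 10.19 in Ly6C-high TAM, 12.82 and 12.66 in colon macrophages, and 8.94 and 8.34 in spleen monocytes. Mrc2, which encodes the endocytic collagen receptor Endo180, read 7.03 and 7.54, 7.62 and 8.35, 6.68 and 6.21, and 6.34 and 6.42. Mrc1 was thus highest in the mature populations and Mrc2 in the tumour populations.

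In F4/80-high TAM against colon macrophages none of the 15 receptors was higher (against 2.67% of all genes) and 2 were lower (against 3.72%), the scavenger receptor Cd36 by -2.33 ± 0.25 (adjusted p = 0.00458) and the integrin chain Itga2 by -2.11 ± 0.38 (adjusted p = 0.0194). In Ly6C-high TAM against spleen monocytes 2 were higher (against 2.88%) and none lower, Mrc1 by 2.06 ± 0.38 (adjusted p = 0.0269) and Mrc2 by 1.61 ± 0.29 (adjusted p = 0.0255). In F4/80-high TAM against spleen monocytes Mrc1 (3.62 ± 0.38, adjusted p = 0.00225) and the inhibitory collagen receptor Lair1 (1.21 ± 0.24, adjusted p = 0.0252) were higher, and the collagen-binding integrin chain Itga1 (-3.12 ± 0.33, adjusted p = 0.00227) was lower. These stand beside 4.58% of all genes higher and 2.37% lower. Colon macrophages against spleen monocytes had 5 of 15 higher and 1 lower (against 6.93% and 4.0% of all genes), and Ly6C-high TAM against colon macrophages 1 higher and 3 lower (against 2.74% and 4.16%). Between F4/80-high and Ly6C-high TAM none of the 15 was called, beside 0.168% of all genes higher and 0.0979% lower. The median difference over the receptors was -0.15 for F4/80-high TAM minus colon macrophages and 0.52 for Ly6C-high TAM minus spleen monocytes.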

How the data were processed

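Total RNA of 8 sorted samples, 4 populations with 2 arrays each, was hybridised to Affymetrix arrays. The authors deposited log2 values made with RMA, which corrects background, normalises between arrays and sums probes into probe sets, and Partek 6.6, per the submitters' processing notes. A genome build is not given in the sources used here. Values came from the value table of the series and symbols from a deposited annotated table, whose 8 value columns match no sample label and were not used. For 1901 genes with several probe sets the one with the highest mean was kept. This applied to Col20a1, Col5a1, Col6a5 and Col6a6.

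Population means over all 8 arrays were fitted in limma 3.58.1 (R 4.3.3) with empirical Bayes moderation, on 4 residual and 2.64 prior degrees of freedom. Benjamini-Hochberg adjustment ran over 21442 genes within each comparison. Every adjusted p is from limma. A call needed an adjusted p no higher than 0.05 and at least a 2-fold difference, and the interaction had no fold limit. The fit was also run on simulated arrays with independent noise. That run does not cover a replicate gap shared by both tumour populations, as seen here. The number of arrays limits the precision. For the tumour populations the labels name no animal or pool for a replicate, so p-values measure only the spread between these samples.

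The collagen genes, marker lists and pathway lists were chosen with earlier results of these data known. Genes chosen for description were those called in any comparison and, in each class, the gene with the widest range of population means. Col1a1, Col1a2, Col3a1, Col4a1, Col4a2, Col6a1, Col6a2, Col6a3, Col14a1, Col15a1 and Col18a1 were described whatever their values. Col12a1 and Col5a2 were added after their values were seen. Col7a1, Col13a1 and Col28a1 were given only for Ly6C-high TAM minus spleen monocytes, without array values. Pathway lists gave up to 4 called genes, and Serpinh1, Prrx1 and Dpt were chosen after their values were seen. Alternatives were median centring, quantile normalisation, a filter on low values, the mean of all probe sets, a trended prior, only the arrays compared, a replicate block, no fold limit, each array left out, and both replicate 2 tumour arrays left out.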

Additional observations from a re-analysis of the deposited data

How the results depend on the processing

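The call of Col14a1 as the only collagen past the threshold held under every alternative for F4/80-high TAM against colon macrophages and for colon macrophages against spleen monocytes. For 41 differences of single collagens, every alternative was run except the one without a fold limit, wherever the gene was in the fit. There 580 of 650 values kept their direction and stayed called or uncalled. Of the rest, 30 lost the call, 26 gained it and 14 changed sign. Most of the 41 differences were uncalled in the main fit, so most of the 580 values had no call to lose. Counts of higher collagens moved in 4 comparisons. For F4/80-high TAM against Ly6C-high TAM the count of 1 was 0 in a fit of only the arrays compared (adjusted p of Col14a1 0.404). That fit called 0.0% of all genes higher, against 0.168% with all arrays. The count also moved in fits that leave 1 array in a population, while the difference of Col14a1 stayed between 2.02 and 2.20. For Ly6C-high TAM against spleen monocytes the count of 4 was 1 in a fit of only the arrays compared and 1 to 12 with an array left out, and 5 without both replicate 2 tumour arrays. For F4/80-high TAM against spleen monocytes the count was 1 in the main fit, beside 4.58% of all genes higher. It was 3 with the filter on low values (8.86% of all genes). It was also 3 with only the arrays compared (5.48%) and with the replicate block (5.46%). Fits that leave 1 array in a population moved it as well. For Ly6C-high TAM against colon macrophages the count of 1 was 2 with median centring, 2 with the replicate block, 2 without the fold limit, 0 with only the arrays compared, 0 without both replicate 2 tumour arrays, and 0 to 7 with an array left out. The interaction count of 0 also moved in fits that leave 1 array in a population. For F4/80-high TAM minus colon macrophages, leaving out both replicate 2 tumour arrays turned the differences of Col1a1 (-0.24), Col1a2 (-0.21), Col3a1 (-0.19), Col6a3 (-0.17), Col8a1 (-0.52) and Col12a1 (-0.54), and quantile normalisation turned that of Col3a1 (-0.016). With an array left out these ran from -0.24 to 1.22 for Col1a1, -0.21 to 1.50 for Col1a2, -0.19 to 0.45 for Col3a1, -0.17 to 0.67 for Col6a3, -0.52 to 0.61 for Col8a1 and -0.54 to 1.24 for Col12a1. A fit that leaves out an array takes the lone array to vary like the other populations, and fewer arrays are then in the fit. Beyond that the cause was not tested. Replicate numbers were not taken to pair the samples. Each number occurs once per population, the labels tie it to no animal, and the correlation of replicate 2 minus replicate 1 over 21442 genes ran from -0.15 (F4/80-high TAM with spleen monocytes) to 0.77 (F4/80-high with Ly6C-high TAM). The replicate block added Col6a1 and Col6a2 to the calls in F4/80-high TAM against spleen monocytes and Col6a1 in Ly6C-high TAM against colon macrophages. Signal over background was not part of the deposited values, so low log2 values could not be told from background.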

Other observations

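Col26a1 carries an older symbol, Emid2, on the array and is therefore not among the 43 genes. Its log2 values were 7.76 and 7.73 in F4/80-high TAM, 7.61 and 7.50 in Ly6C-high TAM, 7.78 and 7.57 in colon macrophages and 8.04 and 8.03 in spleen monocytes, a range of 0.54 like that of the flat collagens. Col4a5 and Col4a6, which lie head to head on chromosome X with starts 1343 bases apart, were both flat, unlike the head-to-head pair Col4a1 and Col4a2. For the 4 collagens with 2 probe sets, the probe sets differed after centring by at most 0.42 for Col20a1, 0.42 for Col5a1, 0.21 for Col6a5 and 0.57 for Col6a6 on any array.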
